A study of Mus musculus with 4 samples.

Results

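The amino acid transporter genes of the mouse kidney were described in mice with renal injury, with and without tubular Apela, the gene that encodes the peptide ELA. Members were the protein-coding genes of the SLC1, SLC3, SLC7, SLC36, SLC38 and SLC43 families, without Slc7a11, together with 7 genes of the SLC6 family (Slc6a6, Slc6a12, Slc6a13, Slc6a18, Slc6a19, Slc6a20a and Slc6a20b). They were picked by gene symbol and numbered 49 of 54078 features in the table, of which 22058 were protein-coding. The symbol pattern also took in Slc7a6os, a neighbour of Slc7a6 that does not encode a carrier, so 48 members encode carriers or their heavy chains.

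RNA-sequencing covered 4 libraries of whole kidney RNA, 2 WT and 2 Apela Ksp KO, each a pool of 3 mice. All mice were adult, age-matched males that carried the floxed Apela allele on both chromosomes, and all were taken at day 3 after both kidneys had been clamped for 30 min. The KO mice also carried Cre under the Ksp-cadherin promoter, which is active in renal tubular epithelial cells. Their WT littermates carried no Cre, so effects of Cre itself and of the loss of Apela cannot be told apart. The sample protocol speaks of an injured and a non-injured kidney at harvest although both were clamped, so which kidney gave the RNA is not settled. No sham-operated library was analysed here, and the sources do not give the age of these mice in weeks. The labels give the strain as C57BL/6 x 129S4/SvJae, while the methods of the study give C57BL/6.

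Amino acids filtered at the glomerulus are almost fully reclaimed in the proximal tubule. Sodium-coupled carriers of the SLC6 and SLC1 families and the heteromeric exchanger of cystine and dibasic amino acids take them up from the lumen, and other exchangers and uniporters release them to the blood. Heteromeric exchangers pair a heavy chain, Slc3a1 (rBAT) or Slc3a2 (4F2hc), with a light chain of the SLC7 family that carries out the transport. Other members sit on the lysosome or supply all cells with glutamine and other neutral amino acids.

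Apela was at 5.27 and 4.57 FPKM in the WT pools and at 0.536 and 0.245 FPKM in the KO pools, where FPKM is the fragments on a gene scaled by its length and the library's depth. The reads behind the values numbered between 16045724 and 16927742 per library, of which 0.428% to 0.483% fell on the members. Proximal tubule markers were present in every library, at a summed 2527 and 1993 FPKM in WT and 1257 and 1858 FPKM in KO, and in 7 of the 10 both KO pools were below both WT pools, beside 18.1% of all genes tested (median log2 difference of the list -0.51). The macrophage markers summed to 124 and 284 FPKM in WT and to 133 and 110 FPKM in KO, so WT replicate 2 stood above the other pools. The accompanying series text names adipose tissue, whose 5 markers summed to 1.43 and 0.312 FPKM in WT and to 8.27 and 3.19 FPKM in KO. Most of that was Cidec, a lipid droplet gene, at 1.37 and 0.282 FPKM in WT and 7.92 and 2.79 FPKM in KO (log2 difference 2.12, unadjusted p 0.022 and adjusted p 0.785 by limma), and Plin1 was also higher in both KO pools at up to 0.347 FPKM. The defining markers Ucp1 and Adipoq were at 0, apart from Adipoq at 0.268 FPKM in KO replicate 2, and the part of these genes in the results was not tested. Each group had 2 pools. The labels do not describe how the pools of a group differ, so the spread between them may be partly technical.

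Levels of the members ran from 0 to 260 FPKM (plot of levels by pool). Slc6a18, the luminal glycine and neutral amino acid carrier B0AT3, was the highest and by itself held 20.2% and 19.9% of the members' summed FPKM in WT and 27.0% and 24.4% in KO. The luminal heavy chain Slc3a1, the basolateral heavy chain Slc3a2, the taurine carrier Slc6a6 and Slc6a19 followed it, and these 5 together held 52.4% to 57.0%. The mean over the 4 pools was at least 10 FPKM in 20 members and at least 1 FPKM in 32. Summed over all members the level was 1059 and 857 FPKM in WT and 947 and 1065 FPKM in KO, so the groups overlapped.

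**Figure D1:**
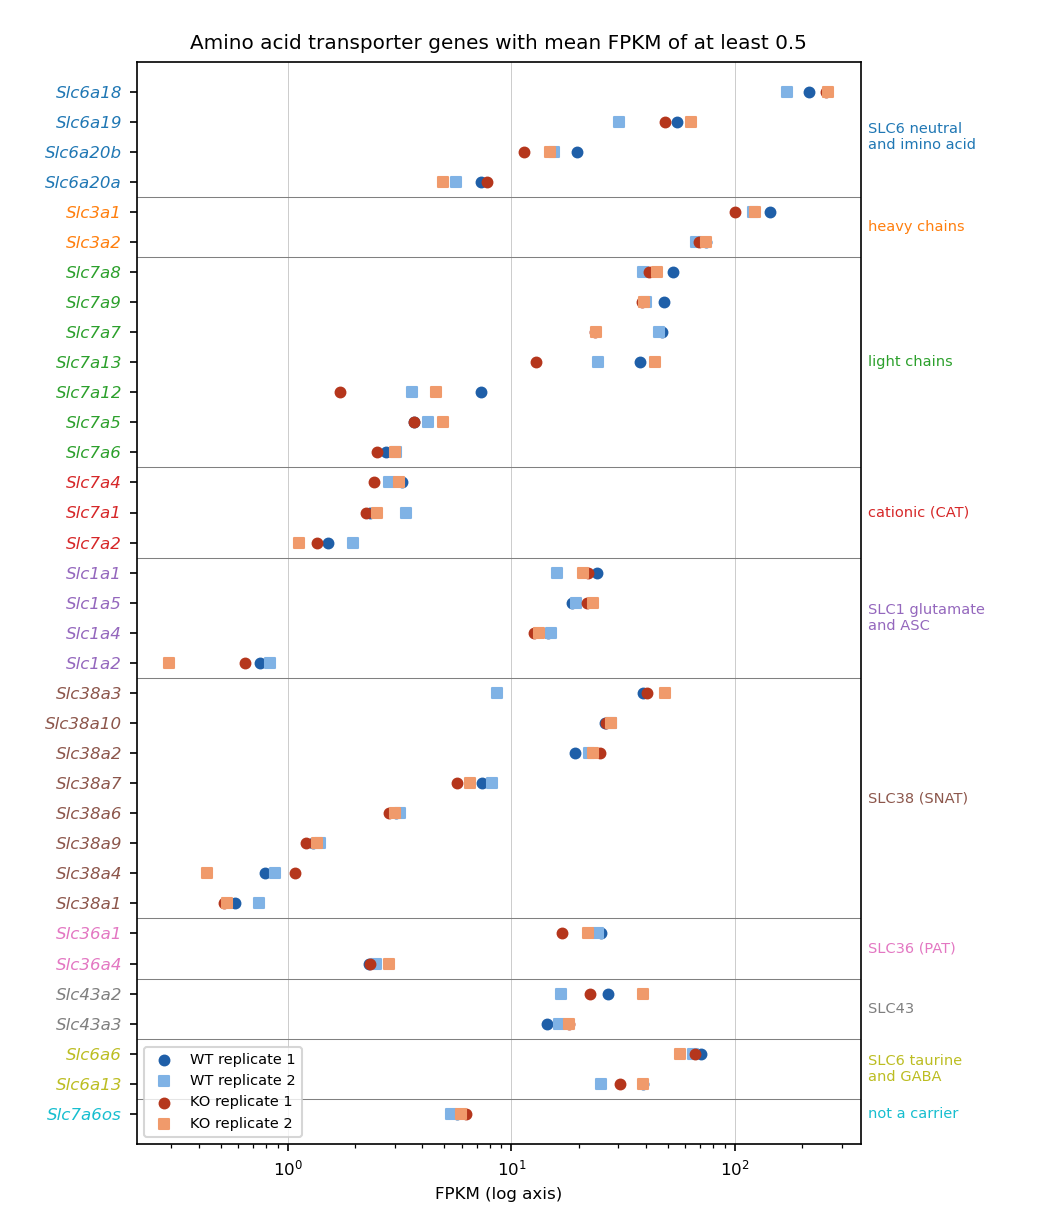
FPKM of each of the 35 members with a mean of at least 0.5 FPKM in the 4 pools, on a log axis, grouped by role; points are pools. The pools of most genes lie close together, Slc7a7 splits by genotype (47.2 and 45.8 against 23.7 and 23.9 FPKM), and Slc38a3 has 1 low pool, WT replicate 2 at 8.61 FPKM.

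The comparison of KO with WT asked whether loss of tubular Apela altered these carriers after injury. The 35 members with a mean of at least 0.5 FPKM were tested with limma on log2(FPKM + 0.5) across 15414 genes, and differences below are on that scale, KO minus WT, with the standard error (SE). No member passed an adjusted p under 0.05 (Benjamini-Hochberg over all genes; 0 of 35), where the background was 0 of 15414 genes or 0%, and voom weights on the recovered reads also called 0. Members' adjusted p ran from 0.466 to 0.991. At an unadjusted p under 0.05, 1 member was lower in KO, Slc7a7, beside 3.03% of all genes, and 0 were higher, beside 3.29%.

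Both KO pools lay above both WT pools in 6 members (17.1% of 35, beside 19.7% of all genes tested) and below both in 10 (28.6%, beside 18.1%), and the pools of 19 overlapped. The median difference of the 35 was -0.07, beside 0.0071 for all genes, and it came to 0.0046 without KO replicate 1. The absolute difference was under 0.5 in 32 of 35 (91.4%), beside 89.4% of all genes. The exceptions were Slc38a3, higher in KO, and Slc7a7 and Slc7a12, lower in KO. Of these, Slc7a12 moved with single pools left out, from -0.75 to -0.15 without KO replicate 1 and to -0.29 without WT replicate 1. It came to -1.22 without WT replicate 2 and to -1.35 without KO replicate 2. KO replicate 1 was the lowest pool in 16 of the 35 members (45.7%, beside 23.3% of all genes) and the highest in 4 (11.4%, beside 25.0%). With 2 pools against 2, an exact two-sided permutation test cannot go below 0.333.

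**Figure D2:**
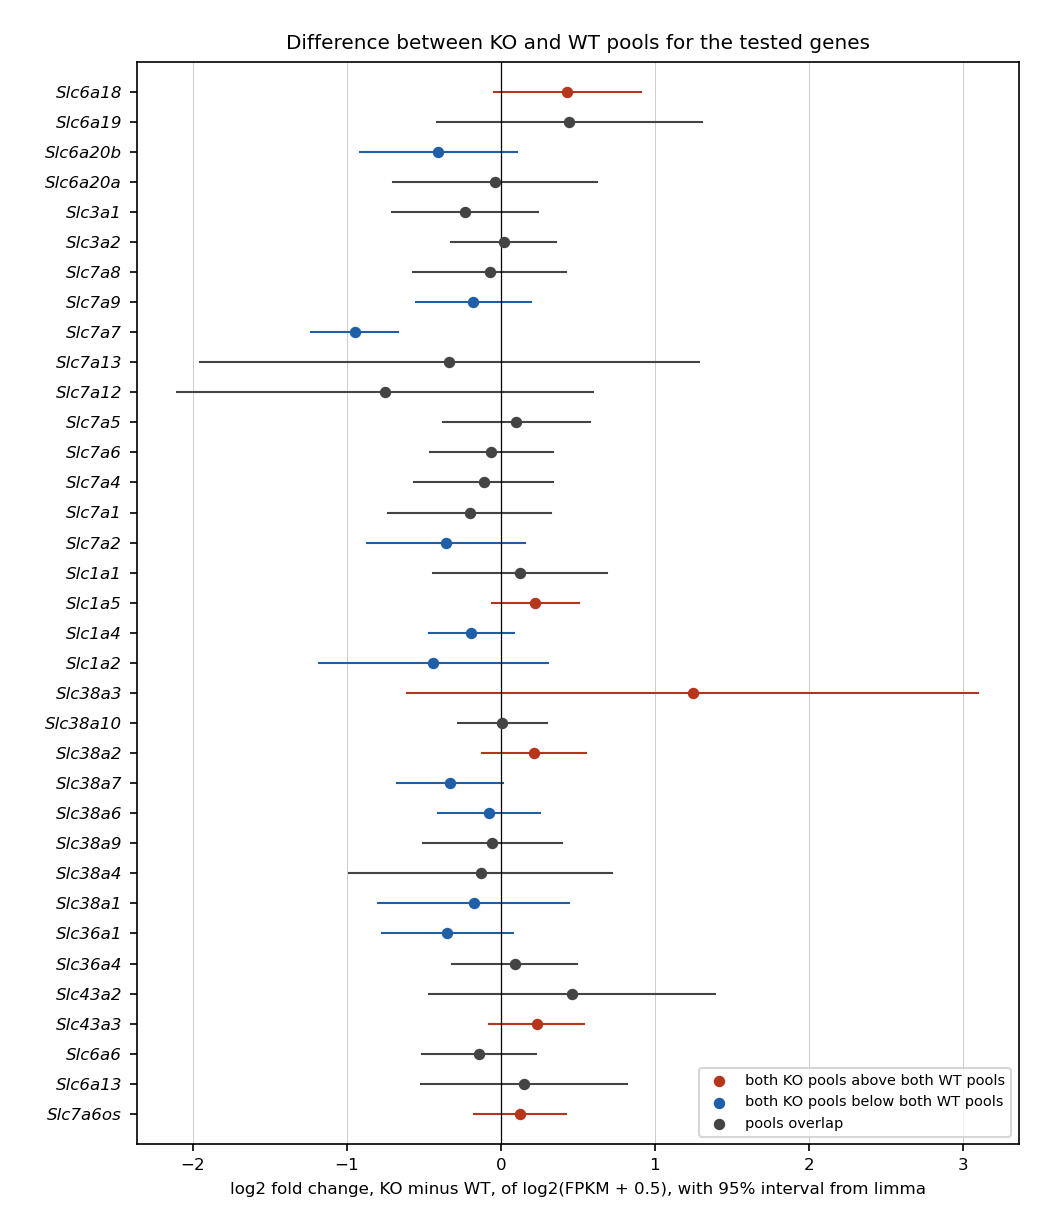
Log2 difference, KO minus WT, of log2(FPKM + 0.5) for the 35 tested members in the same order, with the 95% interval from limma; colours mark whether the KO pools lie above, below or among the WT pools. The interval of Slc7a7, -1.23 to -0.67, is the only one that does not cross 0.

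Slc7a7 encodes y+LAT1, which with the heavy chain Slc3a2 moves dibasic amino acids such as arginine and lysine out across the basolateral membrane. It was at 47.2 and 45.8 FPKM in WT (46.5 ± 1.01, SD, n = 2) and at 23.7 and 23.9 FPKM in KO (23.8 ± 0.139, SD, n = 2), from 1289 to 2612 reads per pool. The KO pools were well below the WT pools, and the pools within a group nearly coincided. The mean was 48.7% lower in KO, and the log2 difference was -0.95 (SE 0.11, 95% interval -1.23 to -0.67). Its unadjusted p of 0.000449 ranked 11 of 15414 genes, but the adjusted p by limma was 0.466. Leaving out any 1 pool gave differences from -0.97 to -0.93, and adjusted p over all alternatives ran from 0.298 to 0.930.

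Marker lists of other kinds differed between the same pools, and their part in the result for Slc7a7 was not tested. Slc7a7 is also known from macrophages, whose 6 markers had a median difference of -0.71. Of these, 2 (C1qb and C1qc) were lower in both KO pools, beside 18.1% of all genes, C1qb narrowly (41.98 against 41.43 FPKM at the nearest pools). The pools of the other 4 overlapped, and Cd68 had a difference of 0.16. Their summed level was 124 and 284 FPKM in WT and 133 and 110 FPKM in KO. The proximal tubule markers had a median difference of -0.51, with the summed levels given above. T cell markers were near 0, with a summed 0.701 and 1.19 FPKM in WT and 0.150 and 0.292 FPKM in KO. The tubular injury list was mixed. Of its 8 markers, 4 were higher and 1 lower without overlap (median 0.11), beside 19.7% and 18.1% of all genes. Its summed level overlapped, at 7638 and 8593 FPKM in WT and 9779 and 7575 FPKM in KO. At an unadjusted p under 0.05 by limma, 2 of the 8 were higher, Lcn2 (1.21) and Krt20 (0.73), beside 3.29% of all genes. At the same p 1 was lower, Vcam1 (-1.91), beside 3.03%. Havcr1 had a difference of -0.83 with overlapping pools. Of 6 endothelial markers, 3 were higher and 0 lower without overlap (median 0.24), beside 19.7% and 18.1% of all genes. At an unadjusted p under 0.05 by limma, 1 was higher (Flt1) and 0 lower, beside 3.29% and 3.03%. No marker in either list passed the adjusted test. In bulk kidney RNA, fewer cells of a type and less RNA per cell cannot be told apart. The gene (ENSMUSG00000000958, chr14:54369442-54417780, minus strand, GRCm38) shares 232 bases with Oxa1l on the other strand, which was at 17.2 and 15.8 FPKM in WT and 17.4 and 18.5 FPKM in KO.

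Slc3a2, the partner of Slc7a7, and the light chains Slc7a8, Slc7a6 and Slc7a5 did not share the pattern of Slc7a7. Slc3a2 was at 73.8 and 66.9 FPKM in WT and at 68.7 and 73.8 FPKM in KO, a difference of 0.02 (SE 0.13) with overlapping pools. The ratio of Slc7a7 to Slc3a2 was therefore 0.640 and 0.684 in WT and 0.346 and 0.324 in KO. Slc7a8, the LAT2 light chain that exchanges neutral amino acids on the same membrane, was at 52.9 and 38.6 FPKM in WT and at 41.1 and 44.9 FPKM in KO (difference -0.07, SE 0.19), which overlapped. Slc7a6, the y+LAT2 paralog with the same substrates, was scarce at 2.74 and 3.04 FPKM in WT and 2.50 and 3.01 FPKM in KO (-0.06, SE 0.15). Slc7a5, the LAT1 light chain for large neutral amino acids, was at 3.67 and 4.22 FPKM in WT and 3.66 and 4.95 FPKM in KO (0.10, SE 0.18). The longest transcript of Slc7a7 shared no stretch of 50 bases with the transcripts of Slc7a8 or Slc7a6.

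Slc3a1, the heavy chain of the luminal exchanger of cystine and dibasic amino acids, was at 143 and 120 FPKM in WT and at 100 and 123 FPKM in KO. Its pools overlapped, with KO replicate 1 lowest (difference -0.23, SE 0.18, adjusted p by limma 0.839). Its light chain Slc7a9 was at 48.3 and 39.8 FPKM in WT and at 38.3 and 39.1 FPKM in KO (-0.18, SE 0.14), and both KO pools were below both WT pools by a margin of under 1 FPKM. The ratio of Slc7a9 to Slc3a1 was 0.339 and 0.332 in WT and 0.381 and 0.318 in KO, a span not much narrower than that of Slc7a9 itself. Slc3a1 shares 767 bases with Prepl on the other strand.

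Slc7a13 (AGT1), an aspartate and glutamate exchanger that also pairs with rBAT, varied most among the abundant light chains. It was at 37.7 and 24.3 FPKM in WT and at 12.9 and 44.0 FPKM in KO, so the KO pools were the lowest and the highest of the 4 (difference -0.33, SE 0.62). Its ratio to Slc3a1 was 0.264 and 0.203 in WT and 0.128 and 0.358 in KO. Slc7a12, its relative encoding Asc-2, was at 7.33 and 3.61 FPKM in WT and at 1.72 and 4.60 FPKM in KO (-0.75, SE 0.51), and again KO replicate 1 was lowest. Of the 7 light chains tested, 6 had a difference below 0, and 51.4% of all genes had one above 0. Without overlap 2 of the 7 were lower, beside 18.1% of all genes, and 1 passed an unadjusted p under 0.05, beside 3.03%. None passed the adjusted test by limma, and the median was -0.18. Without KO replicate 1 the median came to -0.0091, and 4 of the 7 had a difference below 0.

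**Figure D3:**
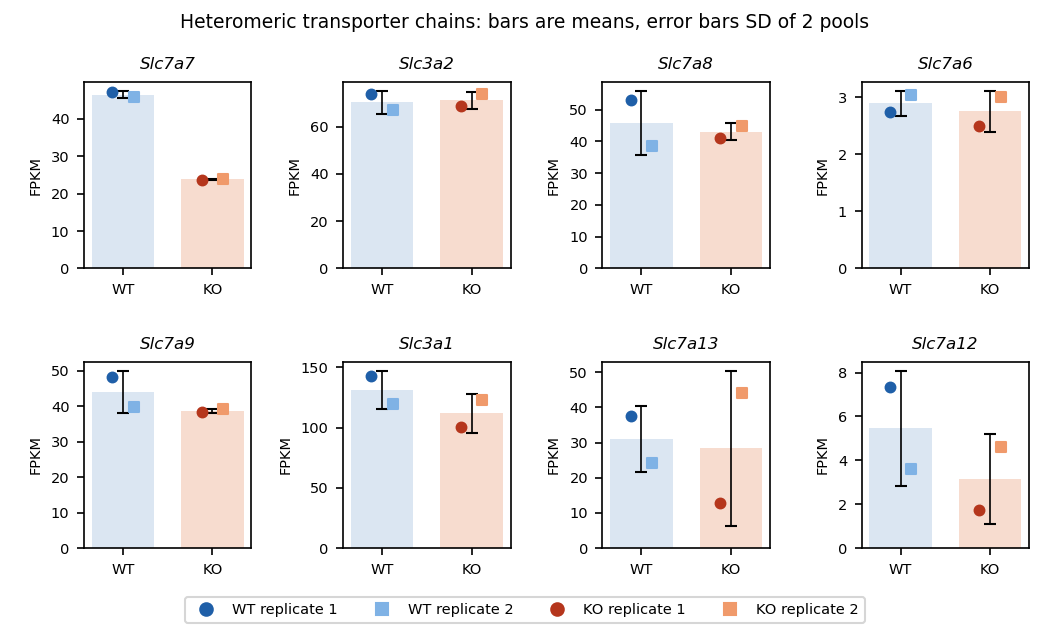
FPKM of 6 light chains and the heavy chains Slc3a2 and Slc3a1 in WT and KO; bars are means of 2 pools, error bars the SD and points the pools. Slc7a7 separates by genotype, at 46.5 against 23.8 FPKM, Slc7a9 does so narrowly (39.8 against 39.1 FPKM at the nearest pools), and Slc7a13 and Slc7a12 are lowest in KO replicate 1.

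The SLC6 carriers of neutral amino acids and proline lie in pairs of neighbouring genes. On chromosome 13, Slc6a18 lies 1.72 kb from Slc6a19, the main luminal neutral amino acid carrier B0AT1. Slc6a18 was at 214 and 171 FPKM in WT and at 256 and 260 FPKM in KO. The KO pools both exceeded the WT pools, by 34.2% in the means (difference 0.43, SE 0.18, 95% interval -0.04 to 0.91, adjusted p by limma 0.786), and leaving out 1 pool gave 0.27 to 0.59. Slc6a19 was at 54.9 and 30.2 FPKM in WT and at 48.7 and 63.5 FPKM in KO (0.44, SE 0.33). Its pools overlapped, and the difference was 0.02 without WT replicate 2, where the gene was lowest. The antisense transcript Slc6a19os, at 0.525 and 0.280 FPKM in WT and 3.13 and 0.928 FPKM in KO, overlaps Slc6a19 over 5040 bases, introns included. The library kit as described does not keep the strand.

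On chromosome 9, Slc6a20b and Slc6a20a, carriers of proline and other imino acids, lie 2.20 kb apart. Slc6a20b was at 19.7 and 15.4 FPKM in WT and at 11.4 and 14.9 FPKM in KO (difference -0.41, SE 0.19, adjusted p by limma 0.797), so both KO pools were below both WT pools. Leaving out KO replicate 1 gave -0.22, and leaving out WT replicate 1 gave -0.24. Slc6a20a was at 7.28 and 5.62 FPKM in WT and at 7.77 and 4.96 FPKM in KO (-0.04, SE 0.25), with overlap. Of the 3845 stretches of 50 bases in the longest transcript of Slc6a20a, 623 (16.2%) also occur in transcripts of Slc6a20b. How reads were split between the pair is therefore uncertain. Slc6a20b also shares 1801 bases with Sacm1l on the other strand.

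Tmem27 (collectrin) brings Slc6a18, Slc6a19 and Slc6a20 to the luminal membrane. It was at 327 and 279 FPKM in WT and at 181 and 258 FPKM in KO (difference -0.49, SE 0.24), lower in both KO pools. Its sign was that of Slc6a20b and opposite to that of Slc6a18. The list of chaperones and peptidases of SLC6 carriers had 3 genes tested, of which 1 was lower without overlap, beside 18.1% of all genes, and 0 passed the adjusted test.

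The luminal carriers were also summed and set beside the proximal tubule markers. The 9 luminal members summed to 548 and 422 FPKM in WT and to 497 and 571 FPKM in KO, with KO replicate 2 highest. Much of this was Slc6a18, and without it they summed to 335 and 251 FPKM in WT and to 241 and 311 FPKM in KO, with WT replicate 1 highest and KO replicate 1 lowest, as in the markers. The markers of the same cells, which include the phosphate carrier Slc34a1 and the glucose carrier Slc5a2, summed to 2527 and 1993 FPKM in WT and to 1257 and 1858 FPKM in KO. Of the 8 luminal members tested, 1 was higher and 2 were lower without overlap, beside 19.7% and 18.1% of all genes. Their median difference was -0.11, and that of the 10 markers was -0.51. The former turned to 0.06 without WT replicate 1 and to 0.0030 without KO replicate 1. It was -0.26 without WT replicate 2 and -0.02 without KO replicate 2. The 5 basolateral members summed to 240 and 177 FPKM in WT and to 197 and 230 FPKM in KO.

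Slc38a3 (SNAT3) takes glutamine into proximal tubule cells for ammonia production. It was at 38.6 and 8.61 FPKM in WT and at 40.5 and 48.5 FPKM in KO. The KO pools both exceeded the WT pools, but WT replicate 1 was close to KO replicate 1 and WT replicate 2 stood apart, so the WT mean of 23.6 FPKM had an SD of 21.2. The difference was 1.25 (SE 0.70, 95% interval -0.61 to 3.10, adjusted p by limma 0.798). Leaving out WT replicate 2 took it to 0.20, and leaving out WT replicate 1 took it to 2.30 with an adjusted p by limma of 0.298. The result thus rested on WT replicate 2.

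The enzymes that handle glutamine carbon in the same cells were given beside it after their values were seen. Pck1, the gluconeogenic enzyme PEPCK, was at 1771 and 575 FPKM in WT and at 2122 and 1594 FPKM in KO. Glud1, glutamate dehydrogenase, was at 299 and 130 FPKM in WT and at 340 and 317 FPKM in KO. For both genes WT replicate 2 was the lowest pool, as for Slc38a3 and for 30.7% of all genes tested. The same pool had the highest macrophage markers, and the part of either in the result for Slc38a3 was not tested.

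**Figure D4:**
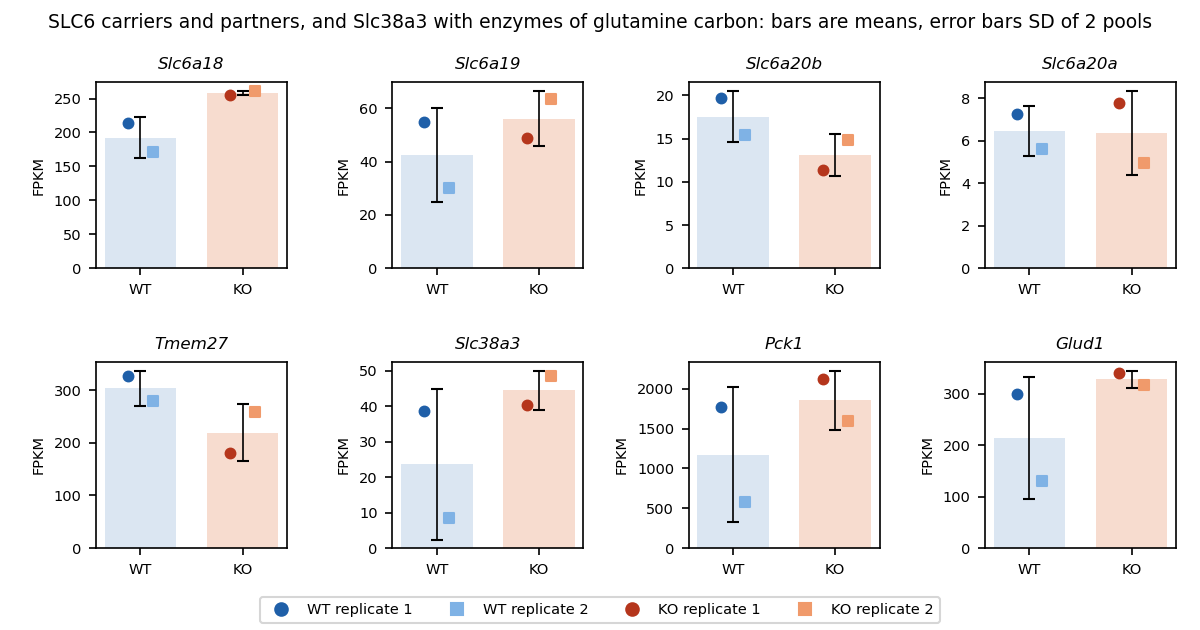
FPKM of the SLC6 carriers of neutral and imino acids with Tmem27, and of Slc38a3 with Pck1 and Glud1; bars are means of 2 pools, error bars the SD and points the pools. Slc6a18 is higher in both KO pools (256 and 260 FPKM), and WT replicate 2 is the lowest pool for Slc38a3, Pck1 and Glud1.

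The lysosome holds its own amino acid carriers, which release the products of protein breakdown and report amino acid supply to mTORC1. Slc36a1 (PAT1), which exports small neutral amino acids with protons, was at 25.0 and 24.3 FPKM in WT and at 16.9 and 22.1 FPKM in KO. Both KO pools were below both WT pools (difference -0.35, SE 0.16, adjusted p by limma 0.797), and leaving out KO replicate 1 gave -0.16, leaving out KO replicate 2 -0.53. Slc38a7 (SNAT7), which exports glutamine and asparagine, was at 7.37 and 8.22 FPKM in WT and at 5.70 and 6.51 FPKM in KO. Its KO pools were also below the WT pools (-0.33, SE 0.13, unadjusted p 0.0559, adjusted p by limma 0.785).

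The other members known from lysosomes or endosomes did not separate by genotype. Slc38a9, the arginine sensor of the lysosome, was at 1.30 and 1.39 FPKM in WT and 1.20 and 1.35 FPKM in KO (difference -0.06, SE 0.17). Slc36a4 (PAT4), a carrier of proline and tryptophan, was at 2.31 and 2.48 FPKM in WT and 2.34 and 2.84 FPKM in KO (0.09, SE 0.15). Slc38a9 is overlapped on the other strand by Gm47827, which was at 1.05 and 1.12 FPKM in WT and 1.30 and 3.27 FPKM in KO.

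Among the plasma membrane carriers of small neutral amino acids, 2 paralogs lay on opposite sides. Slc1a5 (ASCT2), the sodium-dependent exchanger of glutamine, was at 18.7 and 19.3 FPKM in WT and at 21.7 and 23.0 FPKM in KO, higher in both KO pools (difference 0.22, SE 0.11, adjusted p by limma 0.797). Slc1a4 (ASCT1), its paralog for alanine, serine and cysteine, was at 14.6 and 15.1 FPKM in WT and at 12.6 and 13.2 FPKM in KO, lower in both KO pools (-0.19, SE 0.11, adjusted p by limma 0.798). The pools of each group lay within 2 FPKM of each other for both genes. Neither difference passed the test, and the difference between them was not tested.

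Slc1a1 (EAAT3), the luminal carrier of glutamate and aspartate, was at 24.0 and 16.0 FPKM in WT and at 21.9 and 20.97 FPKM in KO (difference 0.12, SE 0.21), with overlap. Slc1a2, a glutamate carrier best known from glia, was at 0.753 and 0.832 FPKM in WT and 0.642 and 0.295 FPKM in KO (-0.44, SE 0.28), from 63 to 188 reads per pool. Its KO pools were below the WT pools, but KO replicate 1 was close to WT replicate 1. Leaving out KO replicate 2 gave -0.18, leaving out KO replicate 1 gave -0.70, and voom weights gave -0.85.

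Slc38a2 (SNAT2), the sodium-coupled neutral amino acid carrier that cells raise when starved of amino acids, was at 19.2 and 22.2 FPKM in WT and at 24.9 and 23.1 FPKM in KO, higher in both KO pools (difference 0.21, SE 0.13, adjusted p by limma 0.800). Slc38a10, a carrier of the same family, was the steadiest abundant member at 26.3 and 27.9 FPKM in WT and 26.6 and 27.9 FPKM in KO (0.01, SE 0.11). Its highest pool exceeded its lowest by a factor of 1.06, where the factor was 5.63 for Slc38a3. Slc38a6 (3.04 and 3.17 FPKM in WT, 2.83 and 3.00 FPKM in KO) and Slc38a1 (0.578 and 0.742 FPKM in WT, 0.517 and 0.532 FPKM in KO) were slightly lower in both KO pools, and the pools of Slc38a4 overlapped. Of the 8 SLC38 members tested, 2 were higher and 3 lower without overlap, beside 19.7% and 18.1% of all genes, with a median of -0.07.

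The SLC43 family includes facilitative carriers. Slc43a3, a carrier of purine nucleobases by its known substrates, was at 14.4 and 16.3 FPKM in WT and at 18.0 and 18.1 FPKM in KO (difference 0.23, SE 0.12, adjusted p by limma 0.797), higher in both KO pools. Slc43a2 (LAT4), a basolateral uniporter for branched-chain amino acids, methionine and phenylalanine, was at 27.1 and 16.7 FPKM in WT and at 22.5 and 38.6 FPKM in KO (0.46, SE 0.35). Its pools overlapped, the KO pools differed more than the WT pools, and leaving out 1 pool gave 0.08 (KO replicate 2) to 0.84 (KO replicate 1).

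**Figure D5:**
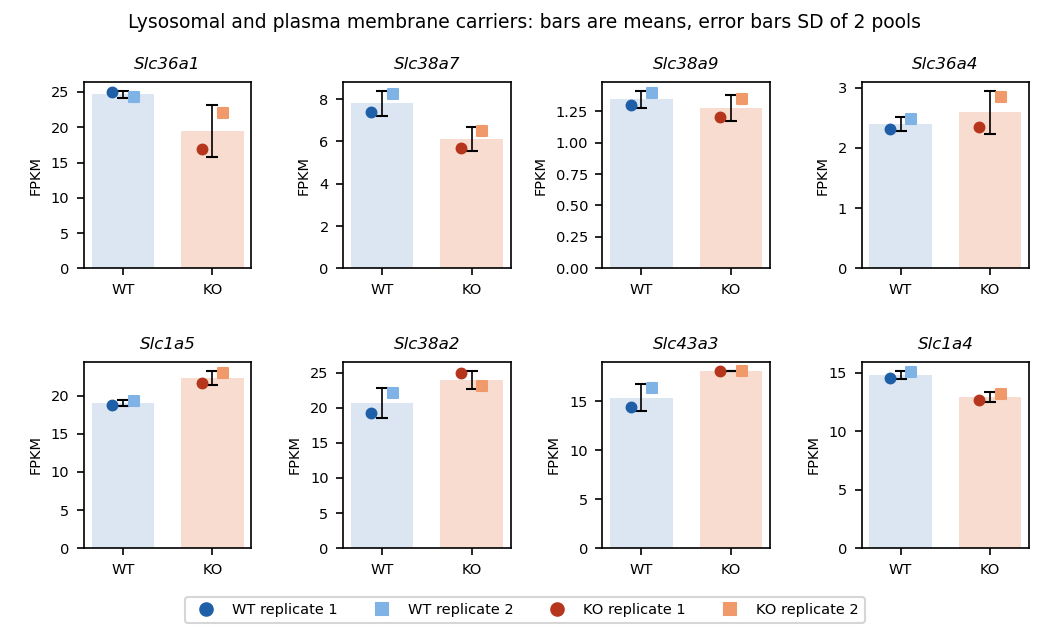
FPKM of the lysosomal or endosomal carriers Slc36a1, Slc38a7, Slc38a9 and Slc36a4 and of Slc1a5, Slc38a2, Slc43a3 and Slc1a4; bars are means of 2 pools, error bars the SD and points the pools. Slc36a1, Slc38a7 and Slc1a4 are lower and Slc1a5, Slc38a2 and Slc43a3 higher in both KO pools, by at most 0.35 on the log2 scale.

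The family of cationic amino acid carriers includes those that bring in arginine, the substrate of nitric oxide synthase. Its genes were scarce here, at a summed 7.26 and 8.35 FPKM in WT and 6.21 and 6.92 FPKM in KO over the 5 genes. Slc7a2 (CAT2) was at 1.51 and 1.95 FPKM in WT and at 1.35 and 1.13 FPKM in KO (difference -0.36, SE 0.19, adjusted p by limma 0.798), lower in both KO pools. The pools of Slc7a1 (CAT1), at 2.33 and 3.37 FPKM in WT and 2.24 and 2.52 FPKM in KO, overlapped, as did those of Slc7a4, at 3.24 and 2.83 FPKM in WT and 2.42 and 3.15 FPKM in KO. The 3 that were tested had a difference below 0 over the 4 pools and none passed, with a median of -0.20. Without WT replicate 1 the median was -0.43, without WT replicate 2 the difference of Slc7a1 was 0.02, and without KO replicate 1 that of Slc7a4 was 0.05.

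Taurine and betaine protect medullary cells against high osmolarity. Slc6a6 (TauT), the taurine carrier, was at 70.2 and 64.9 FPKM in WT and at 66.2 and 56.7 FPKM in KO (difference -0.14, SE 0.14), with overlap. Slc6a13 (GAT2), which carries GABA and taurine, was at 38.5 and 25.0 FPKM in WT and at 30.7 and 38.9 FPKM in KO (0.15, SE 0.25), also with overlap. Its neighbour Slc6a12 (BGT1), the betaine carrier of the medulla, 5.34 kb away on chromosome 6, was under the filter at 0.612 and 0.0952 FPKM in WT and 0.255 and 0.444 FPKM in KO, from 5 to 30 reads. Of other osmolyte genes, Slc5a3, the inositol carrier, was at 18.7 and 11.2 FPKM in WT and 24.9 and 20.3 FPKM in KO (0.62, SE 0.28). Nfat5, the factor that switches on osmolyte genes, was at 8.0 and 9.35 FPKM in WT and 7.43 and 7.06 FPKM in KO (-0.24, SE 0.13). Akr1b3, the aldose reductase that makes sorbitol, was at 7.50 and 8.69 FPKM in WT and 6.90 and 6.71 FPKM in KO (-0.23, SE 0.12). The pools of each of these 3 did not overlap, beside 19.7% of all genes higher and 18.1% lower without overlap, and none passed the adjusted test.

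In all, 14 members were not tested because their mean was under 0.5 FPKM. Slc38a5 and Slc36a3 had 0 reads in all 4 pools, which allows up to 3 reads in each, and 6 of the 14 had at most 3 reads in every pool. The highest among the 14 were Slc43a1, with 28 to 44 reads per pool, Slc6a12, and Slc1a3, the glutamate carrier of astrocytes, with 22 to 32 reads. Slc36a2, the luminal carrier of proline and glycine, had 1 or 2 reads per pool. At this depth no difference could be read for these genes. Slc7a6os was at 5.74 and 5.37 FPKM in WT and 6.25 and 5.94 FPKM in KO (difference 0.12, SE 0.11), slightly higher in both KO pools.

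Cells short of amino acids activate ATF4, which induces a known set of these carriers. The 6 members of that set (Slc3a2, Slc7a1, Slc7a5, Slc1a4, Slc1a5 and Slc38a2) summed to 132 and 131 FPKM in WT and to 134 and 141 FPKM in KO. Of the 6, 2 were higher and 1 lower without overlap, beside 19.7% and 18.1% of all genes, 0 passed the test and the median difference was 0.06, or -0.06 without KO replicate 2. In the list of 14 other genes of the ATF4 response, 3 were higher and 2 lower without overlap, against the same shares, with a median of 0.03, and 0 passed the adjusted test. Psat1, an enzyme of serine synthesis, was at 32.0 and 16.9 FPKM in WT and at 57.7 and 33.3 FPKM in KO (0.90, SE 0.41). Phgdh, which acts in the same pathway, was at 17.1 and 33.3 FPKM in WT and at 13.8 and 16.7 FPKM in KO (-0.64, SE 0.34), so the pair lay on opposite sides. Asns, asparagine synthetase, was at 5.41 and 10.8 FPKM in WT and at 4.02 and 5.29 FPKM in KO (-0.68, SE 0.35).

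Other genes around the carriers were counted by list, beside 19.7% higher and 18.1% lower without overlap among all genes. Of 7 tested carriers of amino acids in the mitochondrial membrane, 1 was higher without overlap, the glutamate carrier Slc25a22, at 11.3 and 6.41 FPKM in WT and 19.8 and 16.5 FPKM in KO (difference 1.04, SE 0.29, adjusted p by limma 0.760). Of 8 other tested amino acid and peptide carriers, 1 was higher and 1 lower without overlap. The lower one was Slc6a15, a carrier of branched-chain amino acids and proline, at 5.51 and 5.35 FPKM in WT and 3.75 and 2.89 FPKM in KO (-0.64, SE 0.16, unadjusted p 0.0107 and adjusted p 0.732 by limma), named after its values were seen. The higher one was Slc6a9, the glycine carrier GLYT1, at 4.03 and 4.31 FPKM in WT and 8.93 and 4.65 FPKM in KO (0.58, SE 0.31). Of 28 tested enzymes of renal amino acid metabolism, 3 were higher and 5 lower without overlap, with a median of 0.05. At an unadjusted p under 0.05 by limma, 1 was higher and 4 were lower, beside 3.29% and 3.03% of all genes. After adjustment 0 passed. Prodh2, which breaks down hydroxyproline, was at 38.6 and 35.8 FPKM in WT and at 21.6 and 19.6 FPKM in KO (-0.84, SE 0.12, adjusted p by limma 0.493).

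Promoter sequences of RefSeq (GRCm38.p6) were found for 36 members, in 53 windows of 300 bases that run from 250 bases before a start to 50 after it. They were searched on both strands for 6 motifs, and 21263 windows of protein-coding genes were searched alike. TGATGNAA, the composite element of ATF4 and C/EBP, was in 3.60% of all windows and in 3 of the 53 windows of members, 1 of Slc1a4 and 2 of the 5 of Slc7a7, which overlap and share 1 of their matches. CACGTG, the E-box that TFEB and related factors bind, was in 7.84% of all windows and in 7 of the 53. These were the windows of Slc36a1 and Slc38a7 and of 5 members under the filter (Slc1a6, Slc1a7, Slc38a5, Slc43a1 and Slc7a14). CAAAGTCC, a core site of HNF4, was in 1.44% of all windows and in 1 of the 53, that of Slc3a1. The HNF1 consensus was in 0.0611% of all windows and in 0 of the 53, TATAAA in 12.6% and 6 of the 53, and CCAAT in 38.2% and 17 of the 53. A match is a description of letters, and none of these sites was measured here.

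The 260 bases around the start (250 before it and 10 after it) are shown for 4 of the members with a match, chosen after their values were seen: Slc7a7, the member with the lowest p, Slc36a1 and Slc1a4, lower in both KO pools, and Slc3a1, the most abundant chain of the exchangers. Other members with a match, such as Slc38a7, are not shown. Capitals mark matches to the motifs on either strand, TGATGNAA in Slc7a7, CACGTG in Slc36a1, TGATGNAA and CCAAT in Slc1a4, and CAAAGTCC and TATAAA in Slc3a1, where TATAAA on both strands overlaps.
Slc7a7, the most upstream of its windows, chr14:54417935-54418194, minus strand: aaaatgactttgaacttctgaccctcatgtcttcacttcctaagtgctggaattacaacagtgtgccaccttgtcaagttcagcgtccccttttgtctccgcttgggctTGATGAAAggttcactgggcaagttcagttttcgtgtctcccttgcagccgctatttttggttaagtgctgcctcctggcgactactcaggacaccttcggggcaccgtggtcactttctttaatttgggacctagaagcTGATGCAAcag
Slc36a1, chr11:55204090-55204349, plus strand: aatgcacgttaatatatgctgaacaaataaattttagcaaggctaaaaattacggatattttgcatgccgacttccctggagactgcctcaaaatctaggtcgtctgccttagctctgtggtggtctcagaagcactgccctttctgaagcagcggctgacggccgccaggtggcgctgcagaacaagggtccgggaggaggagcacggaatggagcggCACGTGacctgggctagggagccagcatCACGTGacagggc
Slc1a4, chr11:20332704-20332963, minus strand: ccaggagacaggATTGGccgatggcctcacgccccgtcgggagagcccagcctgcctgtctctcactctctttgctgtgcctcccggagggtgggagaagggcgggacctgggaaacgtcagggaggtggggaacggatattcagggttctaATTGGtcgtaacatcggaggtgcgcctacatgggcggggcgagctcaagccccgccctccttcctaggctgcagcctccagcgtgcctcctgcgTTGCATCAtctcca
Slc3a1, chr17:85028097-85028356, plus strand: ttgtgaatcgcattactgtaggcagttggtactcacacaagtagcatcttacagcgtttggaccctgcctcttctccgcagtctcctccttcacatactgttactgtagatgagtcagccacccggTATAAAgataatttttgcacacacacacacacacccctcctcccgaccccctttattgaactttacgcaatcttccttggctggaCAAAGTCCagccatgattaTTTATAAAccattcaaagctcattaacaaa
In Slc7a7 the matches begin 141 bases and 1 base before the start, and in Slc36a1 they begin 31 and 3 bases before it. The TGATGNAA match of Slc1a4 lies across its start, from 4 bases before it, and the CAAAGTCC match of Slc3a1 begins 39 bases before its start. This start of Slc7a7 lies upstream of the gene model in the deposited table, which ends at 54417780.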

How the data were processed

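Kidney RNA was prepared as poly-A libraries, 1 per pool of 3 mice. The authors deposited FPKM per gene and library, and the submitters' processing notes name HISAT2 2.0.5, mm10 and GRCm38.p6. The counting tool, the treatment of reads with several matches and the strand setting are not given in the sources used here. Since FPKM times gene length gave whole reads within 0.01 of a read for 100% of the nonzero values, reads were recovered for depth and for voom weights, and intervals from reads cover counting error only.

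Genes with a mean of at least 0.5 FPKM over the 4 libraries were fitted with limma 3.58.1 (R 4.3.3) on log2(FPKM + 0.5) with a mean-variance trend, two-sided, with Benjamini-Hochberg adjustment over 15414 genes. The fit was tested on simulated data. Replicates of a group differed by more than sampling noise (chi-square per gene of 31.5 in WT and 24.5 in KO). The members and gene lists were chosen with earlier results of these data known. Members were given pool by pool where the mean was at least 10 FPKM or where the pools did not overlap (up to 8 a direction by size of difference), and further members were added to complete pairs and role groups. Of each other list at most 3 genes with a mean of at least 5 FPKM and no overlap were given, largest difference first, except where the text says otherwise and for marker lists. Some genes of these lists are not reported here. Alternatives were pseudocounts of 0.1 and 1, no filter or a mean of at least 1 FPKM, quantile or median-of-ratios scaling, voom weights, a fit with no trend, only protein-coding genes, a replicate block and leaving out each library. Gene positions are those of the deposited table, and 95.9% of the members have the same coordinates in GENCODE M21. Bases shared with a gene on the other strand were counted over whole gene spans, introns included.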

Additional observations from a re-analysis of the deposited data

How the results depend on the processing

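No gene and no member passed the adjusted threshold under any alternative. At an unadjusted p under 0.05 the fit called 974 genes and 1 member. The members lower in KO at that p numbered 2 with quantile normalization, which added Slc3a1, and 2 with voom weights or with protein-coding genes only, which added Slc38a7. With 1 library left out they ranged from 1 to 4 (4 without KO replicate 2: Slc7a7, Slc7a13, Slc36a1 and Slc7a12), and those higher in KO ranged from 0 to 4 (4 without WT replicate 1: Slc6a18, Slc6a19, Slc38a3 and Slc1a1). In those fits the lone library was assumed to vary like the other group. Members above both WT pools then numbered 8 to 13, against 6, and members below numbered 13 to 18, against 10, since fewer samples separate more easily. The members' median difference ranged from -0.11 to 0.0046.

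Of 24 members given by the rule, 6 turned direction with a library left out. The ranges were -0.051 to 0.089 for Slc3a2, -0.30 to 0.15 for Slc7a8, -0.16 to 0.46 for Slc6a13, -1.20 to 0.53 for Slc7a13, -0.033 to 0.053 for Slc38a10 and -0.16 to 0.41 for Slc1a1. Some members added to complete pairs and role groups turned as well. Without KO replicate 2, Slc6a20a came to 0.26, Slc7a5 to -0.09 and Slc36a4 to -0.03. Without KO replicate 1, Slc7a6 came to 0.05 and Slc38a9 to 0.0046. Quantile normalization turned Slc3a2 to -0.073 and Slc38a10 to -0.046. The cause was not tested. Others kept their sign but moved by over 1.5 times with a library left out, among them Slc3a1 (-0.38 to -0.09), Slc6a6 (-0.25 to -0.03), Slc7a9 (-0.32 to -0.04), Slc38a2 (0.11 to 0.31), Slc43a3 (0.14 to 0.32) and Slc7a2 (-0.50 to -0.21). With the replicate number as a block, the adjusted p of Slc7a7 was 0.746 and 0 genes were called. Deviations of same-numbered pools had a correlation of -0.0017 over genes, so the numbers were not read as pairs. With 2 pools a group, depth limits mainly the 14 members under 0.5 FPKM.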
